A study of Mus musculus with 108 samples.

Results

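Olfactory receptor genes, whose mouse symbols begin with Olfr, form the largest gene family of the mouse and act mainly in the nose, so their clusters were examined in liver as long stretches of chromatin of which most have no known role there. All 1419 autosomal RefSeq genes with such a symbol were taken, of 46709 autosomal gene records in all: 1103 were protein-coding, 315 were pseudogenes and 1 was a miscellaneous RNA. For each gene a window was drawn from 5 kb before to 5 kb after the gene body, and every bin of 200 bp that a window touched was counted in a union of 76862 bins. The windows covered 15.4 Mb or 0.624% of the 12313718 autosomal bins, and 9.67% of their bins lay in the windows of 2 or more Olfr genes. Genes less than 500 kb apart were joined into a cluster. This gave 67 clusters on 18 autosomes, of which 24 had 10 or more genes and held 1296 genes (91.3%), while 22 held a single gene.

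Each bin carried a chromatin state, the label that the hidden Markov model of ChromHMM gives to a combination of histone marks. The model had 8 states and was trained on ChIP-seq of H3K4me3, H3K27me3, H3K27ac and H3K4me1 in formalin-fixed, paraffin-embedded livers of C57BL/6 females. SD 3m were 8 mice of 3 months on standard diet (30 libraries), SD 12m were 8 mice of 12 months on the same diet (29 libraries), and CR 12m were 9 mice of 12 months on 30% caloric restriction (29 libraries). SD 6m was not analysed here. The authors merged the libraries of a group before they assigned states, so there was 1 segmentation a group, no difference could be set against the spread between mice, and no test was made. The reads behind the merged files are unknown. They came from 7, 8 and 5 libraries of H3K4me3 and from 7, 8 and 6 of H3K27me3 in SD 3m, SD 12m and CR 12m, and the part of these numbers in the differences below was not tested. Both comparisons with 12 months use the same SD 3m segmentation. Liver holds several cell types, and a change in every cell cannot be told apart from a change in a few cells or in the makeup of the tissue.

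An olfactory sensory neuron expresses 1 allele of 1 receptor gene, and the receptor couples to a G protein, adenylyl cyclase and a cyclic nucleotide-gated channel. Class I receptors, the older branch, share a single cluster next to the beta-globin genes, and class II receptors make up the other clusters. The genes are short, with an uninterrupted coding exon, and their median length in the annotation was 945 bp. H3K27me3 is the mark of Polycomb repression, whereas H3K4me3 marks active promoters. States 1 to 5 combine the active and poised marks (active TSS, flanking TSS, 2 kinds of active enhancer, poised enhancer). State 6 is H3K27me3 alone and is called Polycomb below. State 7 has weak H3K4me3 with hardly any H3K27me3 and overlaps repeats and lamina-associated domains in the authors' annotation. State 8 has none of the 4 marks and is called quiescent.

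Promoter sequences of 5 genes that lay in different states are shown first, since base composition returns in the results. They run from 250 bases before to 50 after the annotated start of the gene in RefSeq (GRCm38.p6 build), and are called promoters below. They are written 5′ to 3′ in the direction of the gene with each CpG dinucleotide in capitals. In Olfr339, Olfr141 and Olfr1415 the last 50 bases begin with ATG. Their annotated start may thus be that of the coding sequence and not of transcription. How many other annotated starts are of this kind was not counted. Olfr339 (chr2:36421150-36421449, plus strand) stood first by position among the genes tied for the largest gain of state 7 in SD 12m. Olfr141 (chr2:86806948-86807247, minus strand) did so among those tied under CR 12m. Olfr1415 (chr1:92491704-92492003, minus strand) stayed in Polycomb, Olfr1442 (chr19:12673929-12674228, plus strand) stayed in an enhancer state, and Olfr1408 (chr1:173137285-173137584, minus strand) stayed quiescent in all groups.
Olfr339: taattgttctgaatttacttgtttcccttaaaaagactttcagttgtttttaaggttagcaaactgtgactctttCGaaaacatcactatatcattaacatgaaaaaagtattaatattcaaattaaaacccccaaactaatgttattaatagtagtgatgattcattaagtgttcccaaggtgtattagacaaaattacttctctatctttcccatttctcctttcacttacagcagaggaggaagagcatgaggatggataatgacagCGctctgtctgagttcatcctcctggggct
Olfr141: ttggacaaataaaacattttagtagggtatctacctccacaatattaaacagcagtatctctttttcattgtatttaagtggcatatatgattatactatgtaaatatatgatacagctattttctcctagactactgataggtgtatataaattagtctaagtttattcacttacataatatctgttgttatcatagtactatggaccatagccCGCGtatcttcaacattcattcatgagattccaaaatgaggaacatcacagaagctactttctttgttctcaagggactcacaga
Olfr1415: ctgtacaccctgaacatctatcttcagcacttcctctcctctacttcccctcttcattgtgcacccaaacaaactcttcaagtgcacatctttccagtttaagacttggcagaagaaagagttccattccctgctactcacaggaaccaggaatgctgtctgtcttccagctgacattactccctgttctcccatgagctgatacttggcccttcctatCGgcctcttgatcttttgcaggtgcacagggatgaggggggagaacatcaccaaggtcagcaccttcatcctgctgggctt
Olfr1442: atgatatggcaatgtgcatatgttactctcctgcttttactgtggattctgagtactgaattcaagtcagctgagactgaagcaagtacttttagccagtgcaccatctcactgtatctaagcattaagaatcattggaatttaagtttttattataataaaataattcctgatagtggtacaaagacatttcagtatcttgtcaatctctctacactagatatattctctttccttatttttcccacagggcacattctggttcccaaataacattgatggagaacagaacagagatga
Olfr1408: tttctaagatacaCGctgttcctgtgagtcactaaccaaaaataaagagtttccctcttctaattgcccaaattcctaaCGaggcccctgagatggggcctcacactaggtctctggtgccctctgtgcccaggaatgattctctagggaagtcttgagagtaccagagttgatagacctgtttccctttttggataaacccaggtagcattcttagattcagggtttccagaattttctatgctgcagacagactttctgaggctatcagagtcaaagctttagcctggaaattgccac
The GC content of these stretches was 34.3% for Olfr339, 32% for Olfr141, 49.7% for Olfr1415, 35.3% for Olfr1442 and 45.3% for Olfr1408. Olfr339, Olfr141 and Olfr1408 held 2 CpG each, Olfr1415 held 1 and Olfr1442 held 0, so among these 5 the Polycomb promoter was the richest in GC but not in CpG.

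Means were taken over the 942 promoters found for 938 of the Olfr genes. Promoters of genes whose 5′ end lay in Polycomb in SD 12m (215 promoters) had 40.2% GC and 1.70 CpG on average. Those whose 5′ end lay in state 7 (229) had 33.4% GC and 1.08 CpG, and those in state 8 (491) had 35.5% GC and 1.173 CpG. Thus the Polycomb promoters were the richest in GC and the state 7 promoters the poorest. Of the Olfr promoters, 41.1% held TATAAA on either strand, the core of the TATA box, against 12.8% of the 30454 other autosomal promoters. TAATTA, a core bound by homeodomain proteins such as Lhx2 that act in receptor choice, was present in 18.7% against 4.85%. CCCNNGGG, the palindromic core of the site of the Ebf proteins, was present in 3.08% against 14.2%. TATAAA and TAATTA hold only A and T, and the fixed bases of CCCNNGGG are C and G. The other promoters were not matched for GC, and the part of base composition in these shares was not tested. TAATTA and CCCNNGGG read the same on both strands, and matches to the 3 motifs could overlap. Of the printed promoters, that of Olfr141 held 1 TATAAA and the others held no match to any of the 3.

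At 3 months the Olfr windows were almost wholly without marks. State 8 held 87.6% of their bins in SD 3m (Wilson 95% interval 87.3 to 87.8), against 65.96% of all autosomal bins. Polycomb held 9.01% (8.81 to 9.22) against 8.26%, and state 7 held 2.28% (2.18 to 2.39) against 1.92%. States 1 to 5 held 1.15% against 23.9%. These intervals, and those that follow, cover counting error only, since neighbouring bins are not independent and mice were merged. The Olfr windows therefore differed from the other autosomal bins at 3 months chiefly in their lack of active states.

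At 12 months on standard diet, state 7 held 24.1% of the bins of the Olfr windows (23.8 to 24.5), and on caloric restriction 8.79% (8.59 to 8.99). The autosomes had 11.9% and 4.35%. Polycomb rose to 19.5% (19.2 to 19.8) in SD 12m and to 12.9% (12.6 to 13.1) under CR 12m, against 12.4% and 9.42% of the autosomes. State 8 was left with 55.5% in SD 12m and 77.3% under CR 12m. SD 12m was thus the highest, CR 12m the next and SD 3m the lowest for both state 7 and Polycomb, and the order was kept under each of the other ways of counting bins that were tried. The sizes depended on the large clusters: with each of the 67 clusters weighted equally, state 7 was 2.98%, 13.8% and 3.51% and Polycomb 24.58%, 35.01% and 25.18% in SD 3m, SD 12m and CR 12m. States 1 to 5 stayed rare, at 0.847% in SD 12m and 1.05% under CR 12m.

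The windows of all other autosomal genes had less state 7 in each group, 1.62% in SD 3m, 6.09% in SD 12m and 2.38% under CR 12m. The windows of the 616 genes beginning Vmn1r or Vmn2r, the vomeronasal pheromone receptors that likewise act mainly in the nose, had more of it, 8.15%, 29.0% and 16.5%. Polycomb set these chemoreceptor families apart. It held 2.44%, 5.50% and 2.21% of the Vmn windows in SD 3m, SD 12m and CR 12m, less than in the Olfr windows in every group. The Olfr windows had 37.98% GC and the Vmn windows 38.06%, whereas the autosomal bins outside Olfr windows had 41.96%.

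**Figure D1:**
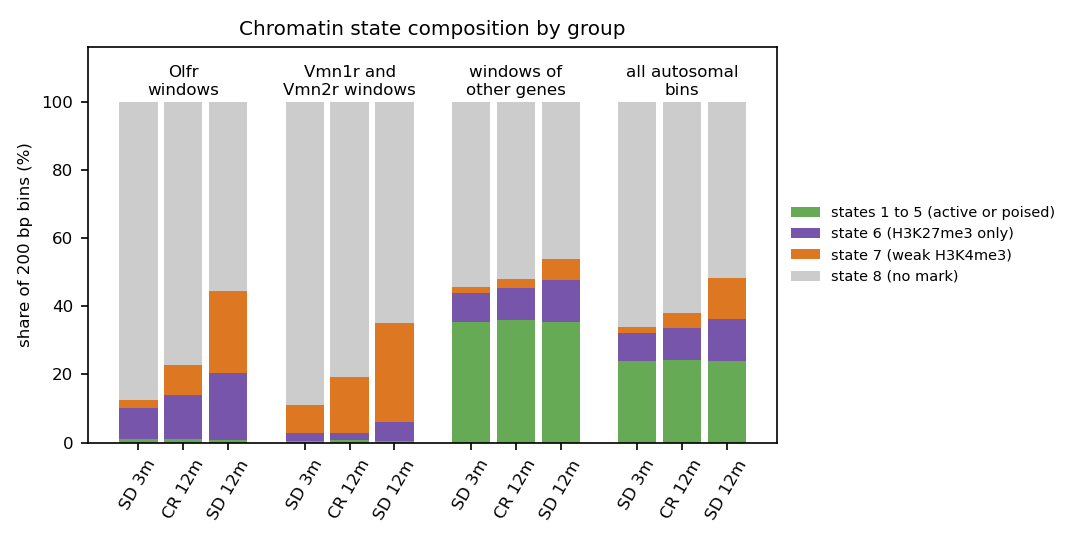
Stacked bars give the percent of 200 bp bins in states 1 to 5 together, state 6, state 7 and state 8, for each of the 3 segmentations (1 a group, no error bars). State 7 in the Olfr windows grows from 2.28% in SD 3m to 8.79% under CR 12m and 24.1% in SD 12m, and states 1 to 5 are hardly visible there.

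Most of the new state 7 came from quiescent bins. Of the 67297 Olfr bins that were quiescent at 3 months, 25.7% had state 7 in SD 12m and 8.80% under CR 12m, against 15.8% and 5.01% on all autosomes. Another 13.8% and 8.19% went from state 8 to Polycomb, against 11.3% and 7.38%. Bins that were in Polycomb at 3 months kept it in 79.9% of cases in SD 12m and 61.0% under CR 12m, more often than on the autosomes, where 56.3% and 51.4% kept it. Exchange between Polycomb and state 7 took few bins, and in SD 12m it was commoner than on the autosomes. Of the Polycomb bins of SD 3m, 0.549% were in state 7 in SD 12m (0.221% on all autosomes), and of the state 7 bins of SD 3m, 8.20% had gone to Polycomb (2.33%). Under CR 12m the first share was lower than on the autosomes, 0.0433% against 0.0924%, and the second higher, 6.38% against 2.79%.

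Read over the 3 groups together, 49.8% of the Olfr bins were in state 8 in all of them, against 43.1% of the other autosomal bins. The commonest change, 15.9% of Olfr bins, was from state 8 to state 7 in SD 12m with state 8 under CR 12m, against 7.50% elsewhere. State 7 in both groups of 12 months after state 8 at 3 months was found in 5.98% (2.67% elsewhere). A gain of Polycomb in SD 12m only was found in 6.84% (4.26% elsewhere), a gain in both in 5.19% (3.14%), and Polycomb throughout in 5.16% (3.59%). The state 7 bins of CR 12m were largely among those of SD 12m: 5415 bins were shared, 80.2% of the 6755 of CR 12m and 29.2% of the 18559 of SD 12m. On all autosomes these shares were 84.3% and 30.9%. Since both groups share SD 3m, these figures give where the labels lay and are not 2 independent comparisons.

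Counted by gene, a rise of 20 percentage points or more in the state 7 share of the window was called a gain. In SD 12m against SD 3m, 466 of the 1419 Olfr genes gained state 7 (32.8%), where 6.6% of all autosomal genes did. In CR 12m against SD 3m, 196 did (13.8%), where 2.42% of all genes did. On the gene bodies alone, without flanks, 347 and 129 Olfr genes gained it (24.5% and 9.09%), beside 5.46% and 1.93% of all genes. Falls were few, 20 genes (1.41%, background 0.64%) in SD 12m and 28 (1.97%, background 1.1%) under CR 12m. Next to the limit, Olfr10 had risen by 19.6 points and was not counted, and Olfr1452-ps1 by 20 points and was. With CR 12m set against SD 12m, state 7 was lower by 20 points or more at 386 Olfr genes (27.2%, background 5.74%) and higher at 29 (2.04%, background 0.407%).

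Polycomb rose by 20 points or more at 242 Olfr genes in SD 12m (17.1%, background 9.2%) and at 161 under CR 12m (11.3%, background 6.84%). It fell at 36 (2.54%, background 6.94%) and at 70 genes (4.93%, background 7.59%). Between the groups of 12 months it was lower under CR 12m at 196 genes (13.8%, background 7.24%) and higher at 60 (4.23%, background 3.53%). State 8 was lost by 20 points or more at 692 genes in SD 12m (48.8%, background 18.9%) and at 350 under CR 12m (24.7%, background 14.3%). Even so, 743 genes (52.4%, background 32.9%) kept state 8 over 50% or more of their window in all groups. Of them 403 had no bin in any other state in any group, a count that was not made over all autosomal genes. By contrast, 69 genes (4.86%) kept Polycomb over 50% or more of the window, beside a background of 4.56%. State 7 was kept in this way by 6 genes (0.423%, background 0.799%).

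The states came in stretches longer than a gene. State 7 touched the windows of 114 genes in SD 3m, 581 in SD 12m and 313 under CR 12m, and it filled the window whole at 4, 138 and 20 genes. Polycomb touched 170, 374 and 287 genes and filled the window at 74, 159 and 89. Both states were held by the windows of 12, 47 and 17 genes. These counts were not made over all autosomal genes, so whether they are particular to the Olfr genes is not known. The unbroken stretches of state 7 that touched Olfr windows numbered 222 in SD 3m, 652 in SD 12m and 437 under CR 12m, with median lengths of 3.4, 6.8 and 4.8 kb. Those of Polycomb numbered 137, 258 and 221, with medians of 11.4, 12.7 and 10 kb. Hence the stretches of state 7 became both more frequent and longer, whereas those of Polycomb became more frequent at about the same length.

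The longest stretch of state 7 in SD 12m was 89.2 kb (chr9:18987801-19077000) and held Olfr834 and Olfr835. In SD 3m 9.42% of this stretch was in state 7, and under CR 12m 72.0%. The longest of Polycomb in SD 12m was 155.8 kb (chr1:92477001-92632800) and held the 8 genes from Olfr1416 to Olfr12. It was already there in SD 3m, where 99.6% of it was in Polycomb, and 86.1% was under CR 12m. The longest state 7 stretch of CR 12m, 58.8 kb (chr17:38005401-38064200) around Olfr129, was 15.3% in state 7 in SD 3m and 85.03% in SD 12m.

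The annotated 5′ ends of the genes may be coding starts and lie inside the windows. For state 7 and Polycomb they gave the same order of the groups. In SD 3m, Polycomb at the 5′ ends was below its share among all genes, whereas in the windows it was above that of all autosomal bins. The bin at the 5′ end lay in state 7 at 32 genes in SD 3m, 347 in SD 12m and 120 under CR 12m, which is 2.255%, 24.5% and 8.46% of the Olfr genes. All autosomal genes had 1.85%, 5.73% and 2.42%. It lay in Polycomb at 124, 290 and 186 genes, or 8.74%, 20.4% and 13.1% (background 10.5%, 13.7% and 11.2%). In states 1 to 5 it lay at 12, 8 and 13 genes, or 0.846%, 0.564% and 0.916%, while 45.7%, 46% and 46.4% of all autosomal genes had such a 5′ end.

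In the large clusters Polycomb, and state 7 at 12 months, went with base composition, and less so over all clusters. Over the 24 clusters with 10 or more genes, the GC content of the windows correlated with the Polycomb share in SD 3m (Pearson r 0.84, Spearman rho 0.91) and in SD 12m (r 0.71, rho 0.81). With the state 7 share of SD 12m the correlation was negative (r -0.62, rho -0.70), and under CR 12m likewise (r -0.54, rho -0.70). In SD 3m, where state 7 was scarce, it was weak (r 0.14, rho 0.02). The share of bases in repeats ran the other way, with r 0.72 for state 7 and -0.65 for Polycomb in SD 12m. Over all 67 clusters, 22 of them single genes, the correlations were weaker. That of GC with Polycomb was r 0.59 (rho 0.52) in SD 3m and 0.29 (rho 0.29) in SD 12m, and that with state 7 in SD 12m was -0.43 (rho -0.52). Repeats over all clusters gave r 0.13 (rho 0.16) for state 7 and -0.44 (rho -0.46) for Polycomb in SD 12m. The share of 50-base sequences that occur only once in the genome was weakly correlated with state 7 in SD 12m over the 24 large clusters (r -0.17, rho -0.19). With Polycomb it gave r 0.21 (rho 0.04) in SD 3m, 0.37 (rho 0.30) in SD 12m and 0.45 (rho 0.35) under CR 12m. These are descriptions across clusters that share the same segmentations and differ in size.

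**Figure D2:**
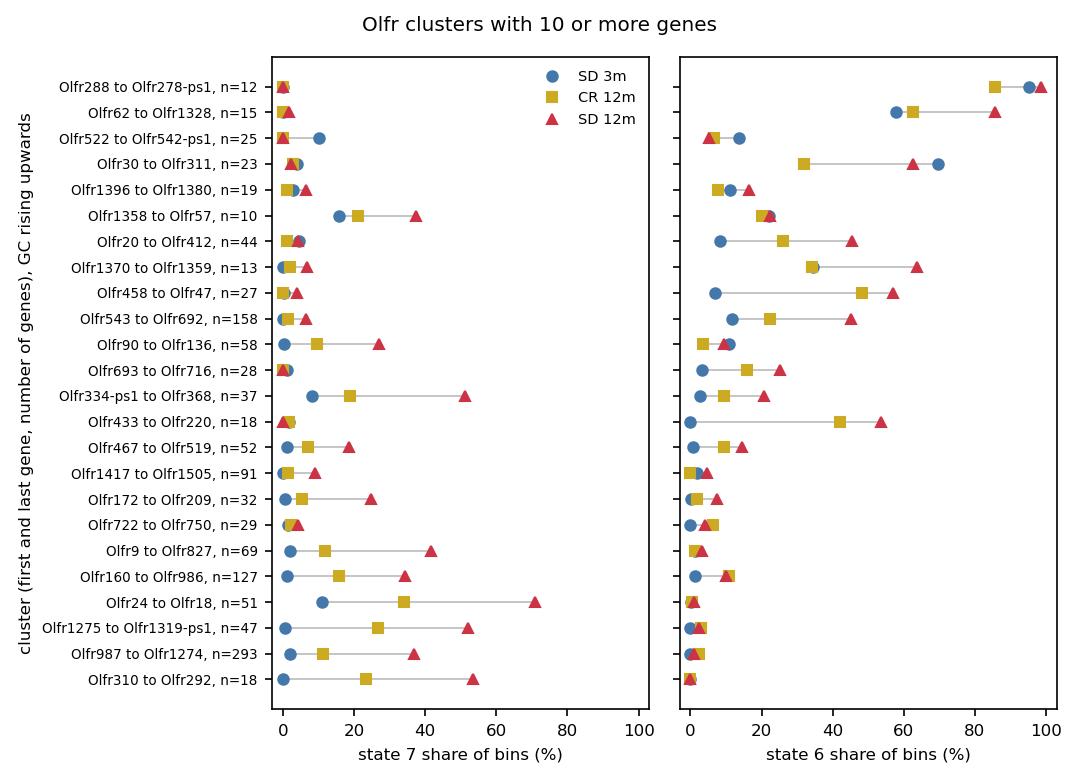
Each line is a cluster of 10 or more genes, ordered by GC content, and points give the percent of its bins in state 7 (left) and state 6 (right) in SD 3m, CR 12m and SD 12m. State 7 rises most in the lower lines, up to 70.8% in the cluster from Olfr24 to Olfr18, and state 6 is highest in the upper lines, up to 98.4% in that from Olfr288 to Olfr278-ps1.

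The largest cluster, 293 genes from Olfr987 to Olfr1274 (chr2:85330967-90401674, 35.9% GC), had almost no Polycomb in any group, 0% in SD 3m, 1.09% in SD 12m and 2.263% under CR 12m. Its state 7 share was 2.11%, 36.8% and 11.1% in the same order. In SD 12m, 100 of the genes had 50% or more of the window in state 7, against 5 in SD 3m and 25 under CR 12m. On the same chromosome the 47 genes from Olfr1275 to Olfr1319-ps1 (chr2:111230853-112167982, 36.1% GC) went from 0.657% state 7 to 52.0% in SD 12m and 26.8% under CR 12m. Here as well Polycomb stayed under 3%.

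On chromosome 9, the 51 genes from Olfr24 to Olfr18 (chr9:18754692-20336094, 36.4% GC) had the highest state 7 share of all clusters with 10 or more genes in SD 12m, 70.8%, after 11.0% in SD 3m and beside 34.05% under CR 12m. Of these genes 39 had 50% or more of the window in state 7 in SD 12m, 12 under CR 12m and 4 in SD 3m. The other large cluster there, 127 genes from Olfr160 to Olfr986 (chr9:37711348-40188094, 36.9% GC), had 1.09%, 34.4% and 15.6%. It also gained Polycomb, from 1.15% to 10.01% in SD 12m and 10.8% under CR 12m. The 69 genes from Olfr9 to Olfr827 (chr10:128989914-130211128, 36.9% GC) had 2.05%, 41.5% and 11.8% state 7 and little Polycomb. In all 5 of these AT-rich clusters CR 12m lay between SD 3m and SD 12m for state 7.

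In other clusters of much the same GC the gain of state 7 was small. The 91 genes from Olfr1417 to Olfr1505 (chr19:11828077-13919972, 37.7% GC) had 0% state 7 in SD 3m, 8.89% in SD 12m and 1.48% under CR 12m, and 84.5% of this cluster was still quiescent in SD 12m. Likewise, the 29 genes from Olfr722 to Olfr750 on chromosome 14 (36.97% GC, named after its values were seen) had 1.504%, 4.28% and 2.31%. The 52 genes from Olfr467 to Olfr519 (chr7:107814586-108894405, 38.2% GC) gained both states, state 7 from 1.27% to 18.6% and Polycomb from 0.823% to 14.6% in SD 12m. In CR 12m this cluster had 6.92% and 9.31%.

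The class I cluster, 158 genes from Olfr543 to Olfr692 (chr7:102476773-105369317, 38.5% GC), changed chiefly by Polycomb. Its share was 11.6% (10.9 to 12.3) at 3 months. It was 45.05% (43.98 to 46.12) in SD 12m and 22.5% (21.6 to 23.4) under CR 12m. The Olfr windows of all other clusters had 8.70%, 16.4% and 11.7%. State 7 held 0.0601%, 6.53% and 1.32% of the class I windows, against 2.55%, 26.3% and 9.70% of the others. Of the class I bins in state 8 at 3 months, 38.9% went to Polycomb in SD 12m and 16.4% under CR 12m, while 7.351% and 1.5003% went to state 7. The number of class I genes with 50% or more of the window in Polycomb was 16 in SD 3m, 72 for SD 12m and 31 under CR 12m. Thus the branch of older receptors and the AT-rich class II clusters named above both lost quiescent bins, to different states. The gain of Polycomb was not particular to class I. A class II cluster of like GC, 27 genes from Olfr458 to Olfr47 (38.5% GC), was named after its values were seen. Its Polycomb went from 6.88% to 56.9% in SD 12m and 48.3% under CR 12m, and it had 3.82% state 7 in SD 12m.

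The 5 beta-globin genes listed lie inside the class I cluster and are expressed in red cells, not in hepatocytes. Their windows were wholly quiescent in SD 3m and again under CR 12m. In SD 12m the embryonic genes Hbb-bh1, Hbb-y and Hbb-bh2 were wholly in Polycomb, and the adult genes Hbb-bs and Hbb-bt had 36.2% and 37.9%. All 5 thus rose by more than 20 points in SD 12m, and none under CR 12m. Of all autosomal genes, 9.2% and 6.84% rose by 20 points or more. The 5 are neighbours in the same locus and some of their windows overlap, so they are not separate observations. Hbb-bh3, which lies among them, was not listed.

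Among the other clusters named by rule, the 44 genes from Olfr20 to Olfr412 (chr11:73350859-74365609, 39.2% GC) gained Polycomb as the class I cluster did, from 8.44% to 45.4% in SD 12m and 26.1% under CR 12m. Their state 7 stayed at 4.52%, 4.16% and 1.21%. The 58 genes from Olfr90 to Olfr136 (chr17:37085191-38336097, 38.4% GC) lie beside the H2-M genes of the major histocompatibility complex, and H2-M2 and H2-M3 fall within the cluster. State 7 there was 0.371%, 27.1% and 9.61%, and Polycomb 10.8%, 9.55% and 3.65%. The cluster of 8 genes up to Olfr1507 (chr14:52035174-52495695, 40.8% GC) is the one next to the H element, an enhancer of receptor genes in olfactory neurons. It had no state 7 in any group, and its Polycomb was 9.78% at 3 months, 60.7% in SD 12m and 10.8% under CR 12m.

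No state 7 at all was found in SD 12m in 4 clusters of 10 or more genes. The first of them, 18 genes from Olfr433 to Olfr220 (chr1:174041933-174449602, 38.3% GC), went from 0% Polycomb to 53.6% in SD 12m and 41.98% under CR 12m, in 9 genes with 50% or more of the window in each. The 28 genes from Olfr693 to Olfr716 (chr7:106677534-107148329) went from 3.14% to 25.3% and 16.0%. Unlike these, the 25 genes from Olfr522 to Olfr542-ps1 (chr7:140162010-140722212, 42.7% GC) lost both states, Polycomb from 13.7% to 5.27% and 6.63%, and state 7 from 10.02% to 0% in both groups of 12 months. The fourth, 12 genes from Olfr288 to Olfr278-ps1, had Polycomb over nearly all of its windows at 3 months.

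Some clusters rich in GC had much Polycomb already at 3 months, and they were named after their values were seen. The 8 genes from Olfr1416 to Olfr12 (chr1:92479681-92621001, 45.4% GC) had 96.8% Polycomb in SD 3m, 97.4% in SD 12m and 89.1% under CR 12m. The 12 genes from Olfr288 to Olfr278-ps1 (chr15:98186011-98499471, 44.8% GC) had 95.2%, 98.4% and 85.8%, and the 15 genes from Olfr62 to Olfr1328 (chr4:118665519-118934840, 43.4% GC) had 57.8%, 85.6% and 62.6%. In this last cluster 65.9% of the quiescent bins of SD 3m went to Polycomb in SD 12m. None of the 3 had more than 1.68% state 7 in any group. The 23 genes from Olfr30 to Olfr311 (chr11:58454915-58842042, 42.5% GC) began as high, at 69.7%, and had 62.5% in SD 12m but 32.05% under CR 12m. Of all 67 clusters, 9 had 50% or more Polycomb in every group. High Polycomb at 3 months was not confined to GC-rich clusters. The 5 genes from Olfr211 to Olfr215 (40.9% GC) had 74.6% in SD 3m, and Olfr49, alone in its cluster (39.3% GC), had 100%.

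Counted over the 24 clusters of 10 or more genes, 18 had more state 7 in SD 12m than SD 3m, 5 had less and 1 had as much. Set against CR 12m, SD 12m had more state 7 in 19 and less in 2. Polycomb was above SD 3m in SD 12m in 20 clusters and below it in 3, and above CR 12m in 18 and below it in 5. CR 12m itself had more state 7 than SD 3m in 15 and less in 7, and more Polycomb in 15 and less in 8. The CR 12m differences from SD 3m were thus the more mixed. In SD 12m 10 of these clusters had 20% or more state 7, 11 had 20% or more Polycomb, and 2 had both. Over all 67 clusters, CR 12m had more state 7 than SD 3m in 16, less in 16 and as much in 35. For Polycomb these counts were 23, 23 and 21. SD 12m had more state 7 than SD 3m in 26 of the 67, less in 12 and as much in 29, and for Polycomb 37, 14 and 16.

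Base composition was then held alike by sorting bins by the GC of the 100 kb around them. In SD 12m the state 7 share of Olfr bins was 41.3% below 36% GC, 40.4% from 36 to 37% and 33.4% from 37 to 38%. In other autosomal bins of the same bands it was 55.3%, 46.9% and 34.97%. From 38 to 39% the values were 21.7% against 21.2%, from 39 to 40% 17.2% against 12.3%, and from 40 to 42% 8.82% against 5.66%. By this measure, state 7 in the Olfr windows lay below other sequence in the most AT-rich bands and above it in the middle bands. The overall share was higher in the Olfr windows. In CR 12m the shares below 36% GC were 16.6% and 18.3%, and from 37 to 38% 13.4% and 11.2%. The result depended on the measure of GC. Sorted by the GC of each bin itself, state 7 in SD 12m was higher in the Olfr windows in every band. It was 32.2% against 26.5% below 32% GC, and 14.8% against 4.37% from 50% up.

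For Polycomb, with bins sorted by the 100 kb around them, the Olfr windows were near other sequence in the most AT-rich bands. They were above it in the GC-rich ones. Below 36% GC the share of Olfr bins in SD 12m was 0.134% against 1.06% of other bins, and from 36 to 37% it was 1.79% against 2.18%. From 37 to 38% it was 10.02% against 5.18%, from 38 to 39% 16.5% against 9.16%, and from 39 to 40% 26.3% against 12.3%. In SD 3m the Olfr share was the lower one up to 39% GC, as from 38 to 39%, where it was 1.19% against 1.82%. From 40 to 42% GC the share of Olfr bins was 19.3% at 3 months, 34.9% in SD 12m and 23.5% under CR 12m, against 7.83%, 14.8% and 10.1% of other bins. From 42 to 44% it was 45.8%, 52.9% and 31.3%, against 13.6%, 17.1% and 12.8%, and from 44% up it was 70.7%, 64.7% and 61.0%, against 14.5%, 15.6% and 13.7%. In this last band the Olfr share was highest at 3 months. Other sequence with such GC holds many active genes: 44.8% of those bins were in states 1 to 5 in SD 3m, against 4.61% of the Olfr bins. The Vmn windows of 37 to 38% GC had 50.03% state 7 in SD 12m, against 33.4% of the Olfr windows in the same band. Sorted by the GC of each bin itself, Polycomb in SD 12m was higher in the Olfr windows than in other bins in every band. It was 12.4% against 9.08% below 32% GC, and 29.3% against 14.3% from 50% up.

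**Figure D3:**
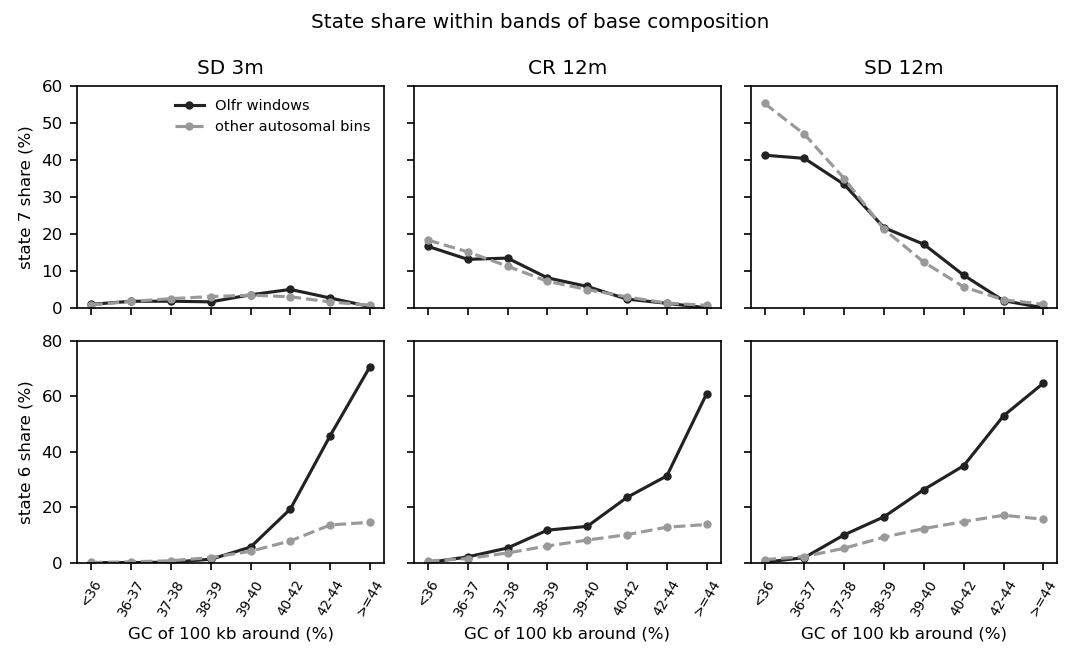
The percent of bins in state 7 (top) and state 6 (bottom) is plotted for bands of the GC content of the surrounding 100 kb, for Olfr windows (black) and all other autosomal bins (grey), in each group. In SD 12m the state 7 lines fall from 41.3% (Olfr) and 55.3% (other bins) below 36% GC, and in SD 3m they stay below 5%, whereas state 6 in the Olfr windows climbs away from other bins above 40% GC, to 70.7% against 14.5% in SD 3m.

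The borders of the clusters were sharp for the active states. On either side of the 24 clusters with 10 or more genes (48 edges), the mean share of states 1 to 5 in SD 3m was 29.8% in the 200 kb outside the first and last gene and 5.31% in the 200 kb inside, and 1.35% from 200 to 500 kb inside. In SD 12m it was 27.9%, 4.89% and 1.20%. State 7 in SD 12m rose over the same distances from 8.08% to 16.0% and 26.7%, and under CR 12m from 3.55% to 6.46% and 11.5%. Polycomb was highest just inside, at 23.3% in SD 12m, with 13.9% outside and 12.6% farther in. In SD 3m it was 10.9%, 13.7% and 1.54%. Short clusters leave the average with depth, so the 11 clusters of at least 1 Mb (22 edges) were also taken alone.

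In these 11 long clusters Polycomb in SD 3m was 9.41% in the first 100 kb inside, 4.48% from 100 to 300 kb and 0.568% from 300 to 500 kb. The mean in the first 100 kb rested on a few edges, since the median edge had 0.2%. In SD 12m the values were 20.5%, 13.2% and 11.8%, with medians of 12%, 3.9% and 0.3%. State 7 in SD 12m was 17.1%, 23.4% and 27.04%, with medians of 5.6%, 15.8% and 18%. In SD 12m state 7 thus grew toward the interior in the means and in the medians, and Polycomb lay nearer to the border. Under CR 12m the mean of state 7 was 9.25%, 8.30% and 11.2% (medians 0%, 4.45% and 7.3%), and that of Polycomb was 11.01%, 9.995% and 6.47% (medians 0.1%, 4.55% and 0%). In SD 3m the mean of state 7 was level, at 3.27%, 3.35% and 3.39%.

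**Figure D4:**
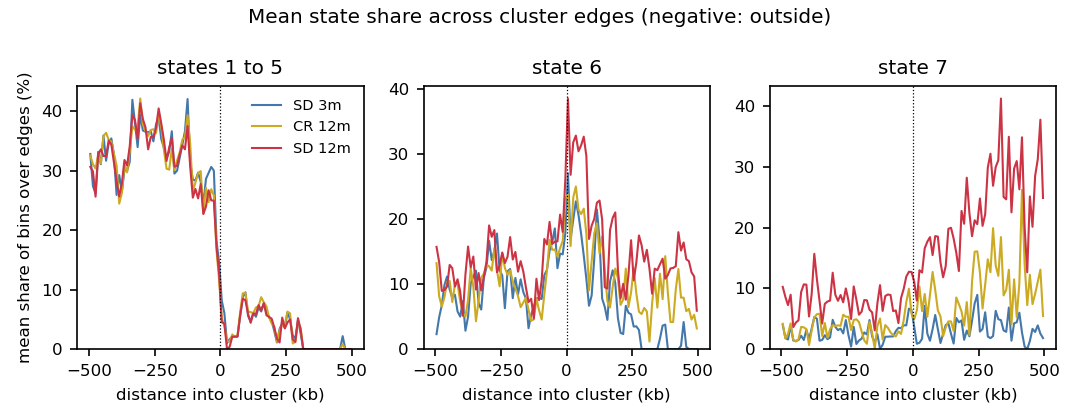
The mean percent of bins in states 1 to 5, state 6 and state 7 is drawn in steps of 10 kb across the edges of clusters with 10 or more genes, with distance from the first or last gene in kb and positive values inside. States 1 to 5 drop at the edge in all 3 groups, from 29.8% to 5.31% in SD 3m over the 200 kb on each side, while state 7 in SD 12m climbs inside from 16.0% to 26.7%.

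The space between genes within clusters also gained state 7, with less Polycomb and more of the active states than the windows. Bins inside a cluster but outside the Olfr windows had 3.89% state 7 in SD 3m, 21.3% in SD 12m and 9.84% under CR 12m, and Polycomb of 5.88%, 12.3% and 8.35%. States 1 to 5 held 7.27%, 6.36% and 6.82% of these bins, against 1.15%, 0.847% and 1.05% of the windows. In the 500 kb beside the clusters state 7 was 3.14%, 9.83% and 4.47%. Pseudogenes differed little from protein-coding genes in state 7, with 3.05%, 24.8% and 9.31% against 2.08%, 23.7% and 8.63%. They had less Polycomb, 5.49%, 14.2% and 9.83% against 9.82%, 20.9% and 13.7%.

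Single receptors named for known roles outside the nose did not share a state. Olfr558 (chr7:102702323-102712054), a class I receptor also found in blood vessels, was wholly in Polycomb in all 3 groups. Olfr78 (chr7:102740721-102759471), a receptor of short-chain fatty acids in kidney and carotid body, had 41.4% Polycomb in SD 3m, 60% in SD 12m and 15.9% under CR 12m, the rest quiescent. Olfr544 (chr7:102484114-102488307), an azelaic acid receptor reported in liver and fat, had 16.7% in states 1 to 5 and 29.2% in Polycomb in SD 3m, and was wholly quiescent in both groups of 12 months. Its nearest other protein-coding gene, Rrm1, lies 14.3 kb away.

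Olfr734, reported as a receptor of the fasting hormone asprosin, was wholly quiescent in every group. So were Olfr17, a class II receptor long used to study axon targeting, and Olfr1507. Olfr691, a class I receptor of carboxylic acids, went from 0% to 100% Polycomb in SD 12m and CR 12m. Olfr160 and its neighbour Olfr151, acetophenone receptors 42.1 and 60.8 kb from Panx3 at the edge of the large chromosome 9 cluster, differed. Olfr160 had 21.4% Polycomb in SD 3m and 100% in both groups of 12 months, whereas Olfr151 had 0%, 26.3% and 0%. Olfr2, an octanal receptor, had 23.3% Polycomb under CR 12m and 0% otherwise.

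Olfr73, the eugenol receptor, lies in the largest cluster and had 19.6% state 7 in SD 12m with 0% in SD 3m and CR 12m. Olfr16, a receptor also studied in sperm and muscle, had 3.51% of its window in states 1 to 5 in SD 3m and was otherwise quiescent. Olfr1393, linked to glucose handling in the kidney, had 35.2% in states 1 to 5 in SD 3m, 36.3% in SD 12m and 35.2% under CR 12m. Its annotated body ends 0.846 kb from Mgat1, an enzyme of N-glycan synthesis that most cells express.

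The first genes by rise in state 7 in SD 12m were Olfr339, Olfr341, Olfr3, Olfr350 and Olfr366, neighbours in the cluster of 37 genes from Olfr334-ps1 to Olfr368 (chr2:36285060-37332732). Each went from a wholly quiescent window to a wholly state 7 window, as did 104 Olfr genes in all, and the 5 stand first by position only. How many of all autosomal genes did so was not counted. In CR 12m the 5 were not alike. Olfr3 had 96.4% state 7, Olfr366 48.2% and Olfr341 41.1% with 30.4% Polycomb. Olfr339 had 60.7% Polycomb and no state 7, and Olfr350 was quiescent throughout. The whole cluster had 8.03% state 7 in SD 3m, 51.1% in SD 12m and 18.9% under CR 12m.

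Only 11 Olfr genes went from 0% to 100% state 7 under CR 12m, again not counted over all autosomal genes. The first were Olfr141, Olfr1200, Olfr1221, Olfr1231 and Olfr1288. In SD 12m Olfr1200 and Olfr1288 were also wholly in state 7, whereas Olfr1221 had 60.7%, Olfr141 34.5% and Olfr1231 21.8%. CR 12m was therefore the higher of the groups of 12 months at 3 of these 5 genes, against the order of the family as a whole, and they were chosen by that rise. The 5 stand first among the 11 by position only, so that all lie on chromosome 2 reflects this order. Each lies at least 249.2 kb from the nearest protein-coding gene of another family, and this distance was not set beside that of other Olfr genes.

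At the other end, Polycomb covered the whole window in every group at 34 genes, a count that was not made over all autosomal genes. The first by position, Olfr1415, Olfr1414, Olfr1412, Olfr1411 and Olfr1410, belong to the cluster of 8 genes on chromosome 1, between Ndufa10 and Cops9. Both neighbours encode parts of complexes that most cells need. The nearest to Ndufa10, Olfr1415, lies 17.0 kb from it.

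States 1 to 5 occurred in the windows of 45 Olfr genes in SD 3m, 29 in SD 12m and 30 under CR 12m, and of 22 in all groups. These counts were not made over all autosomal genes. Of the 882 bins of Olfr windows in states 1 to 5 in SD 3m, 24.8% lay within 5 kb of another gene. Of all bins of the Olfr windows, 9.89% did. The genes with the highest shares are given with their nearest protein-coding gene of another family. Olfr1442 (chr19:12674179-12675243) had its whole window in states 1 to 5 in every group, and its neighbour Olfr1443 had 100%, 83.8% and 100%. They lie 20.5 and 11.9 kb from Keg1, an acyltransferase gene. Olfr542-ps1, a pseudogene 41.6 kb from Cyp2e1, the alcohol-oxidising cytochrome P450 of hepatocytes, had 100%, 92.9% and 100%.

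Olfr750, 13.1 kb from Rnase12, had 66.7% of its window in states 1 to 5 in SD 3m and 100% in both groups of 12 months. Olfr221, 14.0 kb from Zfp219, had 62.5%, 100% and 100%, and its 5′ bin left state 8 for an enhancer state. Olfr1371 near Skp1 had 72.7%, 80% and 89.1%, and Olfr1396 near Ifi47 had 66.1%, 67.9% and 62.5%. Altogether 7 Olfr genes had their 5′ bin in states 1 to 5 in every group, which was not counted over all autosomal genes. The 7 were Olfr542-ps1, Olfr1396, Olfr1393, Olfr1371, Olfr750, Olfr1442 and Olfr1443. In all of them the state at the 5′ end was an enhancer state and not state 1 or 2.

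The genes that olfactory neurons use along with the receptors had hardly any state 7, the most being 0.334% at Ano2 in SD 3m. Of 22 genes of odour signalling and receptor choice, none gained state 7 by 20 points in SD 12m or CR 12m, beside 6.6% and 2.42% of all autosomal genes. With only 22 genes and such backgrounds, a count of 0 does not set them apart from other genes. Polycomb rose at 4 in SD 12m and fell at 0 (background 9.2% and 6.94%), and it rose at 1 and fell at 2 under CR 12m (background 6.84% and 7.59%). Their 5′ end was in states 1 to 5 in 10 genes in SD 3m and 11 in each group of 12 months, among them Gnb1, Kdm1a, Ldb1 and Atf5, which most cells express. Emx2, a homeodomain factor, was wholly in Polycomb in all groups, and Ebf2 had 83.3%, 94.1% and 89.2%. Adcy3, the cyclase of odour signalling, was quiescent over 79.9%, 98.7% and 97.8% of its window.

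The labels of the tissue were checked on marker genes. All 7 hepatocyte markers, such as Alb and Apoa1, had their 5′ end in states 1 to 5 in every group. Of 7 markers of olfactory neurons, 3 did so too (Omp, Cnga4 and Stoml3). Among all autosomal genes 45.7%, 46% and 46.4% had such a 5′ end in SD 3m, SD 12m and CR 12m. The 3 of 7 thus lay near the share of all genes, and the labels do not give expression. Omp, whose whole window was in states 1 to 5, lies within Capn5. The other receptor families gained state 7 by 20 points in SD 12m at 79 of 366 Vmn1r, 95 of 250 Vmn2r, 9 of 40 Tas2r (bitter taste receptors), 6 of 8 Fpr (formyl peptide receptors) and 0 of 16 Taar genes (trace amine receptors), where 6.6% of all autosomal genes did. In CR 12m these counts were 30, 59, 1, 2 and 0, where 2.42% of all genes did.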

How the data were processed

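ChIP-seq libraries of 4 histone marks from mouse liver were aligned to mm10 with BWA 0.6.2-r126 and handled with SAMtools 0.1.18, per the submitters' processing notes. The authors dropped duplicates and reads of low mapping quality, pooled the libraries of each group, binarized the merged reads in 200 bp bins and deposited the ChromHMM state label (1 to 8) of every bin on chromosomes 1 to 19 and X. The labels are categories, not a signal, and carry no depth.

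Chromosome lengths matched GRCm38.p6, whose RefSeq annotation gave the genes. Shares of bins, transitions and counts of genes were obtained with pandas 2.3.3, numpy 2.4.6 and scipy 1.17.1 (Python 3.11.15), and matplotlib 3.10.9 drew the plots. A gene was called at a change of 20 percentage points in its window, beside the share of all autosomal genes called alike. Wilson 95% intervals are for counting error only. Repeats are lower case bases of the reference. A 50-base sequence was unique if it occurred once on chromosomes 1 to 19 and X, on either strand, and was sampled in every 200th bin outside chemoreceptor windows. The functions were tested on simulated segmentations. The members, lists and limits were chosen with earlier results of these data known.

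Named receptors were a list of 13 well-known ones, the first 5 by states 1 to 5, by state 6 and by rise of state 7 in each group of 12 months, and those with an active 5′ end in all groups, ties by position. Named clusters were the 10 with the most genes, those at the beta-globin, H2-M and Olfr1507 genes, and those with the highest and lowest state 7 in SD 12m. Alternatives were other flanks, protein-coding genes only, equal weights for genes or clusters, leaving out the largest cluster, stretches of at least 1 kb, mostly unique bins, and calls at 10 or 50 points.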

Additional observations from a re-analysis of the deposited data

Results flagged for a closer look

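The 8 Olfr genes of chromosome X were in none of the comparisons above, which were of autosomes, and their 445 bins held signal of their own. Polycomb held 88.8% of them in SD 12m, against 48.1% in SD 3m and 32.8% in CR 12m. Over the whole of chromosome X it held 43.0%, 27.1% and 23.6% of the bins in the same order. State 7 held 3.15% of these Olfr bins in SD 12m and 0% in SD 3m and CR 12m, against 4.97%, 1.42% and 1.36% of the chromosome. With 1 segmentation a group, neither difference could be tested.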

How the results depend on the processing

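No paired analysis was possible because the deposited labels of each group were made from merged libraries. Of 80 recomputed values under 10 settings, 33 stayed within the Wilson interval or within 1.5 times the count. The 47 others kept the order of the groups, and the cause was not tested. Values follow for SD 3m, SD 12m and CR 12m, or for SD 12m and CR 12m in transitions from state 8 to state 7 and in counts of genes. With gene bodies only, state 6 was 10.4%, 21.5% and 13.9%, state 7 was 1.87%, 23.8% and 8.49%, the transition under CR 12m was 9.04%, and 129 genes gained state 7 under CR 12m. With 20 kb flanks, state 6 was 8.26%, 16.9% and 11.7%, state 7 stood at 3.28% in SD 3m and 9.86% under CR 12m, and the transitions were 25.1% and 9.32%. With protein-coding genes only, state 6 was 9.82%, 20.9% and 13.7%, and state 7 was 2.08% in SD 3m and 23.7% in SD 12m. With each gene weighted equally, state 6 was 8.66% in SD 3m, state 7 was 23.7% in SD 12m and its transition 24.7%. With each cluster weighted equally, state 6 was 24.58%, 35.01% and 25.18%, state 7 was 2.98%, 13.8% and 3.51%, and the transitions were 15.2% and 3.32%. Without the largest cluster, state 6 was 11.2%, 24.0% and 15.4%, state 7 was 21.1% and 8.22% in SD 12m and CR 12m, and the transitions were 22.7% and 8.29%. With mostly unique bins, state 6 was 9.90%, 21.7% and 14.5%, state 7 was 26.4% and 9.65% at 12 months, and the transitions were 28.5% and 9.88%. At 50 points, 302 and 78 genes gained state 7. How many reads stand behind a label is not known, so an absent mark may be an undetected one.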
